A study of Mus musculus with 24 samples.

Results

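The macrophage genes of the embryonic mouse inner ear described here are 10 genes taken by name: Ptprc, Csf1r, Cx3cr1, Adgre1, Aif1, C1qa, C1qb, C1qc, Fcer1g and Tyrobp. They are 10 of the 53946 genes counted in the series, and each had reads in at least 21 of the 24 libraries. No measured value entered the rule that chose them, though earlier results of these data were known when they were chosen. The libraries were made from polyA RNA of ventral otocysts, the part of the early inner ear that holds the cochlea, dissected at embryonic day 14.5 from embryos labelled C57BL/6J x 129X1/SvJ. Each library came from a pool of 3 to 7 embryos of 1 genotype.

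The 4 groups were TRAP mut (n = 8), TRAP het (n = 8), pre-TRAP mut (n = 4) and pre-TRAP het (n = 4). Mut pools were Fgf20-/- and het pools were Fgf20+/-. The het pools served as the control, and they too carried 1 mutant Fgf20 allele, so that no wild-type otocyst was compared. In TRAP (translating ribosome affinity purification), ribosomes that carry the tagged protein L10a-eGFP are pulled down with an antibody to GFP, and the RNA bound to them is read. The tag was directed to the Fgf20-Cre lineage, that is, to cells in which the Fgf20 locus drove Cre and to their descendants, and all groups carried it. The libraries called pre-TRAP are taken here as RNA before the pull-down, and their labels carry the same extraction text as those of TRAP. The samples were collected in 2 experiments, with 4 libraries of each TRAP group and 2 of each pre-TRAP group in each.

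Macrophages of the embryo derive from the yolk sac and fetal liver, not from the otic epithelium, and enter the inner ear from the surrounding mesenchyme. They depend on signals through the receptor Csf1r, clear dying cells and prune tissue as organs form, and secrete C1q, which marks debris and synapses for uptake. Their membrane receptors signal through small adaptor proteins, among them the products of Fcer1g and Tyrobp. The genes follow below by role: the pan-leukocyte phosphatase Ptprc (CD45), the receptors Csf1r, Cx3cr1 and Adgre1, the cytoplasmic protein Aif1 (IBA1), the C1q chains and the adaptors.

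Total counts ran from 30745166 to 53374796 per library. Fgf20 itself averaged 2.24 ± 0.729 CPM (counts scaled to a common library size) in TRAP mut libraries and 4.19 ± 0.979 CPM in TRAP het libraries (SD, n = 8 each). It averaged 0.236 ± 0.0690 CPM in pre-TRAP mut libraries and 0.886 ± 0.584 CPM in pre-TRAP het libraries (SD, n = 4 each). The TRAP ranges of Fgf20 did not overlap between genotypes but lay close (highest mut 3.02 CPM, lowest het 3.11 CPM), and reads remained in every mut library. Its log2 fold change, mut over het, was -0.94 ± 0.22 in TRAP and -1.75 ± 0.45 in pre-TRAP (SE). Neither passed edgeR's test over all genes (adjusted p = 0.188 in TRAP and 0.837 in pre-TRAP). As a check of the tissue, 10 otic epithelium genes summed to 620 to 857 CPM in TRAP libraries and 478 to 908 CPM in pre-TRAP libraries. Of these 10 genes, 8 were called higher in TRAP than in pre-TRAP, Epcam and Sox2 among them, and 1, Oc90, was called lower. Their median log2 fold change was 1.23, although the sums overlapped. Across 28 pairs of libraries of the same group and experiment, no pair looked like a copy of another (chi-square per degree of freedom 23.8 to 165). Nothing in the labels says which embryos share a litter, so p-values measure the spread between these pools.

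Promoter sequence was at hand in RefSeq (build GRCm38.p6) for 6 of the 10 genes, namely Ptprc, Cx3cr1, Aif1, C1qb, C1qc and Fcer1g. The myeloid factor PU.1, product of Spi1, binds purine-rich sites built around a GGAA core. Searched as letters were GAGGAA, the related motif GGAAGT and the joined form GAGGAAGT, each on both strands in the 250 bases before each start. C1qb and C1qc are shown because they are neighbours on chromosome 4 and encode chains of 1 protein, and C1qc but not C1qb was called between the experiments. A link between the motifs and that call was not tested. Each stretch is given 5′ to 3′ on the strand of the gene, which is the minus strand, with matches to GAGGAA or to the motif GGAAGT or their reverse complements in capitals.
C1qb, chr4:136886201-136886300, bases 100 to 1 before the start: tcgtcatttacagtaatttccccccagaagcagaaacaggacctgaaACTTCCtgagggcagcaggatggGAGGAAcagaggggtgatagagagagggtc
C1qc, chr4:136893045-136893144, bases 230 to 131 before the start: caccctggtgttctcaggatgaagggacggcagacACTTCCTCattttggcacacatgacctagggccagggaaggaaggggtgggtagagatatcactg
In C1qc the motifs overlap on the opposite strand, beginning 195 bases before the start, and form the longer GAGGAAGT, whereas in C1qb they lie apart, on opposite strands, 53 and 30 bases before it. GAGGAA also occurred before Aif1 (7 bases before the start) and before 1 of the starts of Ptprc, and the motif GGAAGT before both starts of Ptprc. Neither was found before Fcer1g or Cx3cr1. Of all 32851 promoters in the table, 23.3% held GAGGAA, 19.7% held the motif GGAAGT and 2.44% held the joined form GAGGAAGT. A match is a match of letters and does not show binding.

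The first comparison asked how the macrophage genes were represented in ribosome-bound RNA of the Fgf20-Cre lineage relative to the whole tissue. TRAP libraries held far less of them: 9 of the 10 fell, by 5.52-fold for C1qa to 12.1-fold for Aif1, and Ptprc did not pass the test. Of the 24242 genes tested, 31.2% were called lower and 27.9% higher at an adjusted p under 0.05 (edgeR's quasi-likelihood test with Benjamini-Hochberg adjustment), so a fall as such is common, and its size is read against all genes. The median log2 fold change was -2.79 over the 10 and -0.01 over all genes tested. The summed level was 5.25 ± 1.07 CPM in TRAP mut libraries and 4.98 ± 1.56 CPM in TRAP het libraries (SD, n = 8 each), against 31.8 ± 6.75 CPM in pre-TRAP mut libraries and 32.3 ± 5.32 CPM in pre-TRAP het libraries (SD, n = 4 each). In bulk RNA, fewer cells of a type and less RNA per cell cannot be told apart, nor can either be told from weaker capture of that RNA.

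**Figure D1:**
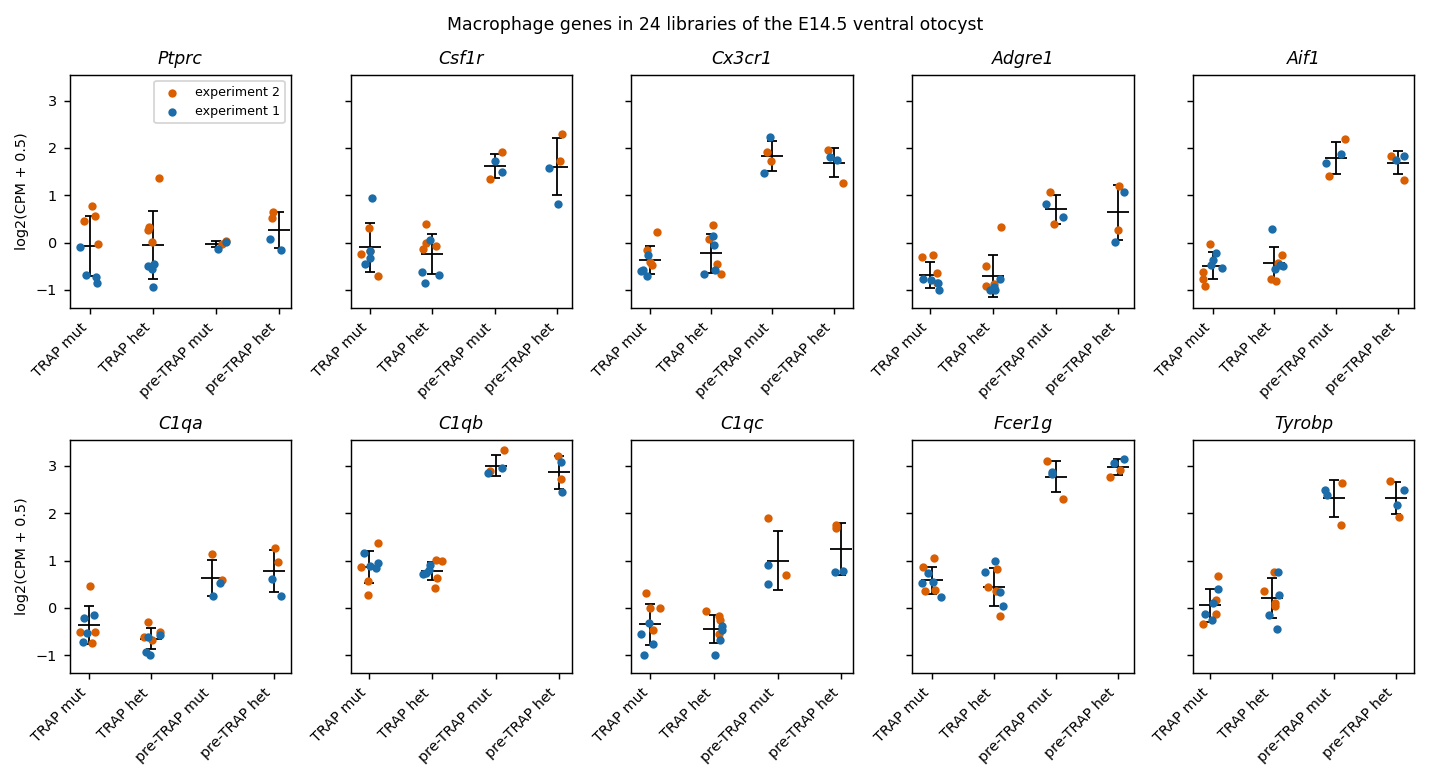
Level of each macrophage gene as log2(CPM + 0.5) in the 4 groups, left to right TRAP mut, TRAP het, pre-TRAP mut and pre-TRAP het. Points are the 24 libraries, orange for experiment 2 and blue for experiment 1, and black marks are the mean ± SD of a group; Ptprc alone was not called between TRAP and pre-TRAP, and in no panel are the ranges of the genotypes apart.

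Csf1r (ENSMUSG00000024621) encodes the receptor for CSF1 and IL-34, on which most tissue macrophages depend for survival. It ranged from 0.110 to 1.43 CPM (median 0.361) in TRAP mut libraries and from 0.0523 to 0.814 CPM (median 0.429) in TRAP het libraries. Pre-TRAP mut libraries held 2.05, 2.31, 2.81 and 3.25 CPM, and pre-TRAP het libraries held 1.27, 2.47, 2.79 and 4.37 CPM. All TRAP libraries but 1, library 6 of TRAP mut at 1.43 CPM, lay below every pre-TRAP library. The log2 fold change was -2.62 ± 0.33 (SE; edgeR adjusted p = 1.34e-07).

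Cx3cr1 (ENSMUSG00000052336), the fractalkine receptor of monocytes, microglia and tissue macrophages, ranged from 0.111 to 0.665 CPM (median 0.238) in TRAP mut libraries and from 0.131 to 0.795 CPM (median 0.346) in TRAP het libraries. Pre-TRAP mut libraries held 2.28, 2.80, 3.25 and 4.21 CPM, and pre-TRAP het libraries held 1.89, 2.86, 2.98 and 3.36 CPM. TRAP and pre-TRAP did not overlap for this gene (log2 fold change -3.16 ± 0.27, edgeR adjusted p = 1.54e-10).

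Adgre1 (ENSMUSG00000004730), which encodes the F4/80 antigen of mature mouse macrophages, had few reads in TRAP. It reached from 0 to 0.332 CPM (median 0.0797) in TRAP mut libraries and from 0 to 0.758 CPM (median 0.0351) in TRAP het libraries, with no read in 3 of the 16, where 3 counts would have been 0.0767 to 0.0933 CPM. Pre-TRAP mut libraries held 0.804, 0.949, 1.26 and 1.60 CPM, and pre-TRAP het libraries held 0.510, 0.705, 1.60 and 1.80 CPM. The sole TRAP library inside the pre-TRAP range was library 3 of TRAP het, with 27 reads. The log2 fold change of Adgre1 was -3.33 ± 0.47 (edgeR adjusted p = 8.87e-07), while a fit to experiment 2 by itself gave -2.33 and one to experiment 1 gave -4.74.

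Aif1 (ENSMUSG00000024397) encodes IBA1, an actin-bundling protein used to stain microglia and macrophages. It ranged from 0.0275 to 0.475 CPM (median 0.204) in TRAP mut libraries and from 0.0666 to 0.714 CPM (median 0.216) in TRAP het libraries. Pre-TRAP mut libraries held 2.14, 2.73, 3.17 and 4.04 CPM, and pre-TRAP het libraries held 2.00, 2.86, 3.03 and 3.07 CPM. The groups were far apart: the lowest pre-TRAP library was above the highest TRAP library. At -3.59 ± 0.29 (edgeR adjusted p = 3.56e-11), this was the largest log2 fold change among the 10, and the TRAP mean was 8.34% of the pre-TRAP mean.

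The 3 chains of C1q, which assemble into the recognition molecule of the classical complement pathway, come from neighbouring genes. C1qb (ENSMUSG00000036905) ranged from 0.713 to 2.09 CPM (median 1.33) in TRAP mut libraries and from 0.844 to 1.52 CPM (median 1.21) in TRAP het libraries. It held 6.74, 6.88, 7.29 and 9.53 CPM in pre-TRAP mut libraries, and 4.94, 6.06, 7.99 and 8.77 CPM in pre-TRAP het libraries. C1qb showed the smallest SE of the 10 in this comparison, with a log2 fold change of -2.49 ± 0.15 (edgeR adjusted p = 2.17e-13) and no overlap.

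C1qa (ENSMUSG00000036887) ranged from 0.0950 to 0.880 CPM (median 0.198) in TRAP mut libraries and from 0 to 0.309 CPM (median 0.152) in TRAP het libraries. It held 0.682, 0.949, 0.999 and 1.71 CPM in pre-TRAP mut libraries, and 0.692, 1.02, 1.47 and 1.92 CPM in pre-TRAP het libraries. Library 14 of TRAP mut, at 0.880 CPM, was the only TRAP library within the pre-TRAP range of C1qa. C1qc (ENSMUSG00000036896) ranged from 0 to 0.742 CPM (median 0.260) in TRAP mut libraries and from 0 to 0.458 CPM (median 0.245) in TRAP het libraries. It held 0.909, 1.11, 1.36 and 3.25 CPM in pre-TRAP mut libraries, and 1.19, 1.22, 2.74 and 2.88 CPM in pre-TRAP het libraries. No TRAP library reached the pre-TRAP range of C1qc. The log2 fold changes were -2.46 ± 0.33 for C1qa and -2.74 ± 0.32 for C1qc (edgeR adjusted p = 3.99e-07 and 3.28e-08), and the estimates of the 3 chains lay within 1 SE of C1qa or C1qc of each other.

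The adaptors carry immunoreceptor tyrosine-based activation motifs and pass on signals from receptors that have none: Fcer1g (ENSMUSG00000058715) from Fc receptors, and Tyrobp (ENSMUSG00000030579), also called DAP12, from TREM2 and its relatives. Fcer1g ranged from 0.664 to 1.59 CPM (median 0.948) in TRAP mut libraries and from 0.387 to 1.49 CPM (median 0.817) in TRAP het libraries. Its pre-TRAP mut libraries held 4.44, 6.65, 6.77 and 8.05 CPM, and its pre-TRAP het libraries held 6.35, 7.05, 7.88 and 8.36 CPM. TRAP lay below pre-TRAP throughout for Fcer1g, with a log2 fold change of -2.84 ± 0.18 (edgeR adjusted p = 5.48e-13). Tyrobp ranged from 0.285 to 1.08 CPM (median 0.495) in TRAP mut libraries and from 0.235 to 1.20 CPM (median 0.647) in TRAP het libraries. Its pre-TRAP mut libraries held 2.86, 4.71, 5.13 and 5.69 CPM, and its pre-TRAP het libraries held 3.27, 4.02, 5.11 and 5.89 CPM. Tyrobp likewise did not overlap (log2 fold change -2.86 ± 0.23, edgeR adjusted p = 4.89e-11).

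Ptprc (ENSMUSG00000026395) encodes CD45, the membrane phosphatase of nearly all nucleated blood cells, and so marks lymphocytes and granulocytes as well as macrophages. It ranged from 0.0517 to 1.20 CPM (median 0.459) in TRAP mut libraries and from 0.0248 to 2.09 CPM (median 0.370) in TRAP het libraries. Pre-TRAP mut libraries held 0.413, 0.477, 0.504 and 0.527 CPM, and pre-TRAP het libraries held 0.397, 0.549, 0.930 and 1.07 CPM. TRAP libraries lay both below and above the pre-TRAP range, and 7 of 16 were below all of it. The log2 fold change was -0.49 ± 0.36 (edgeR adjusted p = 0.253, 95% interval -1.21 to 0.22). The TRAP mean of Ptprc was 92.1% of its pre-TRAP mean, against 8.34% to 18.9% for the other 9 genes. In experiment 2 alone the log2 fold change was 0.47 (edgeR adjusted p = 0.346), and in experiment 1 alone it was -1.51 (edgeR adjusted p = 0.0281).

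Over the 10 genes, 6 had TRAP and pre-TRAP ranges that did not overlap: Cx3cr1, Aif1, C1qb, C1qc, Fcer1g and Tyrobp. Over all 24242 genes tested, 2018 (8.32%) had every TRAP library below every pre-TRAP library. Each of the 9 that fell passed the test in all 34 alternative fits, which include each experiment and each genotype alone. Library 23 held the highest pre-TRAP het value for 8 of the 10 genes, and library 24 the highest pre-TRAP mut value for 8, both of experiment 2. Library 18, also of experiment 2, was lowest in pre-TRAP mut for 5. In the RefSeq annotation Csf1r overlaps Mir6983 and Gm52352, Cx3cr1 overlaps Gm33858, and Adgre1 overlaps Gm18069 and Gm20243, and their reads cannot be told apart where counting ignored the strand. The counts behind the values were small: 14 to 353 reads per gene in a pre-TRAP library and 0 to 88 in a TRAP library.

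**Figure D2:**
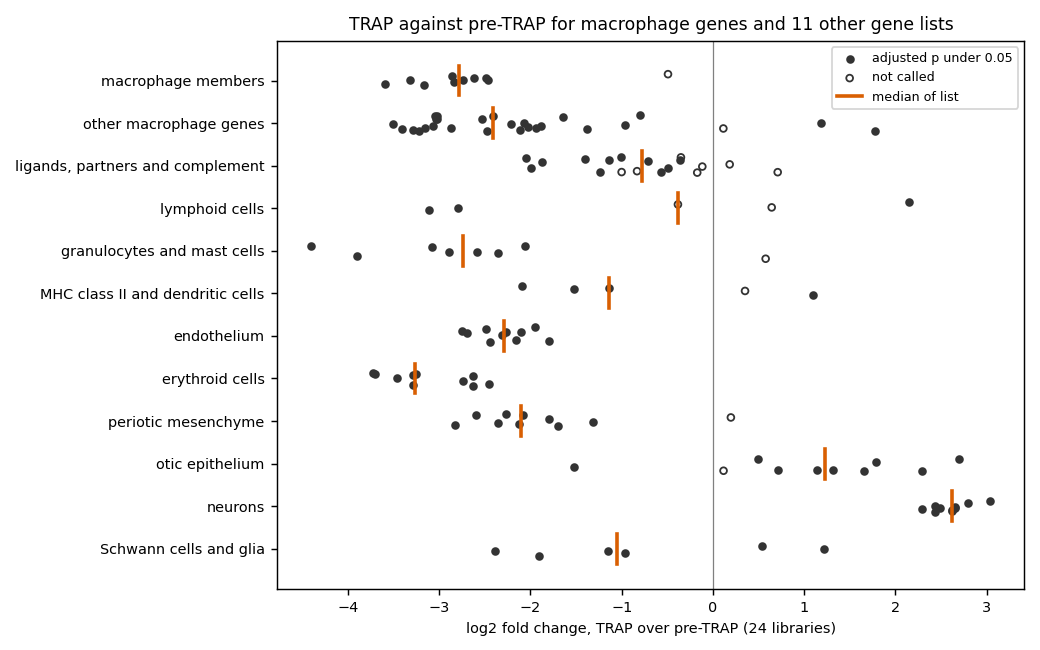
Log2 fold change of TRAP over pre-TRAP for every tested gene of 12 lists, 1 row per list, filled where the edgeR adjusted p was under 0.05, with the median of each list as an orange bar. Macrophage genes (median -2.79) lie with endothelial, erythroid and mesenchymal genes to the left of 0, and neuronal genes lie to the right.

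Other genes of macrophages fell as well. Of 30 further macrophage genes, 27 were tested, 24 fell and 2 rose, with a median log2 fold change of -2.41. Laptm5, a lysosomal membrane protein of blood cells, fell to 1.62 ± 0.889 CPM in TRAP libraries (n = 16), against 17.8 ± 3.21 CPM in pre-TRAP libraries (n = 8, SD), a log2 fold change of -3.51. Trem2, a lipid-sensing receptor that signals through Tyrobp, changed by -3.04, and Spi1, the gene of PU.1, by -2.12 on the log2 scale. Among those that rose was Coro1a (1.19), which encodes an actin regulator that neurons also express, and Cd163 (0.11, edgeR adjusted p = 0.867) did not pass the test.

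Of 19 genes of ligands, partners and complement, 18 were tested, 11 fell and none rose, with a median of -0.77. Csf1, the main ligand of Csf1r, fell to 0.688 ± 0.351 CPM in TRAP libraries (n = 16), against 2.74 ± 0.512 CPM in pre-TRAP libraries (n = 8, SD), or 3.99-fold lower. Cx3cl1, the ligand of Cx3cr1, fell by 1.14 on the log2 scale. Il34, the second ligand of Csf1r, did not pass the test (edgeR adjusted p = 0.186, 95% interval of the log2 fold change -2.26 to 0.26). Of partners downstream of the adaptors, the kinase Syk fell by 1.01. Hcst, an adaptor encoded next to Tyrobp, had a log2 fold change of -0.83 ± 0.60 (edgeR adjusted p = 0.239). C3, the central complement component, had a log2 fold change of 0.71 ± 0.35 (edgeR adjusted p = 0.0870).

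Markers of some other non-epithelial cells, though not all, fell with the macrophage genes in TRAP relative to pre-TRAP. All 10 endothelial genes fell (median -2.29), as did all 10 erythroid genes (median -3.27) and 9 of 10 mesenchymal genes (median -2.10), whereas all 10 neuronal genes rose (median 2.63). Mesenchymal genes summed to 224 to 1127 CPM in TRAP libraries and 945 to 1447 CPM in pre-TRAP libraries. Erythroid genes summed to 468 to 1626 CPM in TRAP libraries and 6945 to 16344 CPM in pre-TRAP libraries, and endothelial genes to 9.04 to 28.7 CPM in TRAP and 69.5 to 82.6 CPM in pre-TRAP. Of granulocyte and mast cell genes, 8 of 10 were tested and 7 fell. Genes of Schwann cells and glia were split, with 4 of 6 lower and 2 higher. Of 5 lymphoid genes tested, 2 fell (Cd79a and Cd79b) and 1 rose (Cd3e), and of 5 tested for MHC class II and dendritic cells, 3 fell and 1 rose. The part of any of these cells in the values of the macrophage genes was not tested.

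The TRAP libraries differed in how much mesenchymal RNA they held, and 4 held the most: library 6 at 1127 CPM and library 4 at 486 CPM of TRAP mut, and library 5 at 874 CPM and library 3 at 698 CPM of TRAP het. The other 12 TRAP libraries held 224 to 415 CPM. The macrophage genes summed to 5.47 CPM in library 6, 7.22 CPM in library 4, 6.01 CPM in library 5 and 6.45 CPM in library 3, against 2.53 to 6.74 CPM in the other 12. All 4 were above the TRAP median of 5.19 CPM and below the pre-TRAP range of 24.6 to 40.9 CPM. Without these 4 libraries the same 9 genes fell. In pre-TRAP the order was the other way at the extreme. Libraries 23 and 24 held the least mesenchymal RNA there (945 and 980 CPM) and the most RNA of the macrophage genes (40.0 and 40.9 CPM). A link between the 2 sums was not tested.

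**Figure D3:**
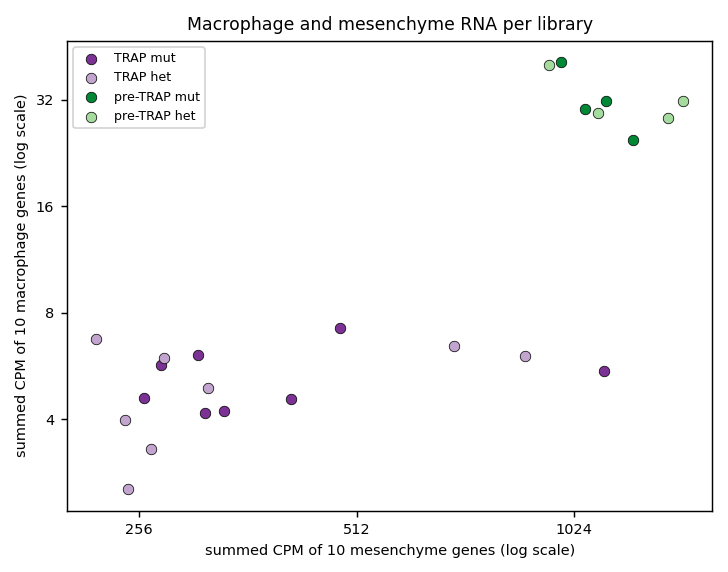
Summed CPM of the 10 macrophage genes (vertical, log scale) against that of 10 mesenchyme genes (horizontal, log scale), 1 point per library, purple for TRAP and green for pre-TRAP, the darker shade for mut. Every TRAP library lies at or below 7.22 CPM of macrophage genes, and library 6, with 1127 CPM of mesenchyme genes, reaches the mesenchyme range of pre-TRAP but not its macrophage range.

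The second comparison was of genotype, mut over het. No macrophage gene was called in either kind of library. In TRAP, 9 of the 10 were tested, since Adgre1 had too few reads, and 0 were called; 0.0742% of the 21577 genes tested were called. In pre-TRAP all 10 were tested and 0 were called, with 0.00455% called among 21954 genes. At an unadjusted p under 0.05, 1 of the 9 in TRAP passed, beside 813 of all genes tested (3.77%), and 0 of the 10 in pre-TRAP, beside 1048 (4.77%). DESeq2 called 53 genes in TRAP (0.246%) and 2 in pre-TRAP (0.00911%), limma voom called 18 in TRAP (0.0834%) and 1 in pre-TRAP (0.00455%), and no macrophage gene was among them.

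In TRAP, the median log2 fold change over the 9 was 0.13 (all genes -0.02), with 5 positive and 4 negative. C1qa had the largest, 1.13 ± 0.53 (unadjusted p = 0.0452, edgeR adjusted p = 1). Its means were 0.305 ± 0.257 CPM in TRAP mut libraries and 0.142 ± 0.0974 CPM in TRAP het libraries (SD, n = 8 each), and the ranges overlapped. The bounds were tightest for C1qb at 0.13 ± 0.22, with a 95% interval of -0.29 to 0.56, and for Fcer1g at 0.17 ± 0.28, with an interval of -0.37 to 0.71. They were widest for C1qa (0.09 to 2.16), Csf1r (-0.55 to 1.45) and C1qc (-0.73 to 1.28), so changes of 2-fold, 1 unit on this scale, lay inside them.

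In pre-TRAP, the median over the 10 was -0.00092 (all genes -0.03), with 5 positive and 5 negative. Ptprc was the lowest at -0.55 ± 0.32 (edgeR adjusted p = 0.837), and Cx3cr1 the highest at 0.18 ± 0.25 (edgeR adjusted p = 0.879). Ptprc averaged 0.480 ± 0.0493 CPM in pre-TRAP mut libraries and 0.737 ± 0.317 CPM in pre-TRAP het libraries (SD, n = 4 each), and its het libraries enclosed the mut range. The 95% intervals were -0.58 to 0.20 for Fcer1g, -0.28 to 0.54 for C1qb, -0.49 to 0.50 for Tyrobp and -0.34 to 0.61 for Aif1. These approximate intervals lie inside a 2-fold change in either direction, whereas the interval of Ptprc (-1.18 to 0.08) reaches past a 2-fold fall.

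Whether the genotype difference itself differed between TRAP and pre-TRAP was tested over all 24 libraries. For no macrophage gene, and for none of 24242 genes (0%), was this interaction called by edgeR, with 302 genes at an unadjusted p under 0.05. The largest among the macrophage genes was 1.34 ± 0.68 for C1qa (edgeR adjusted p = 1).

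**Figure D4:**
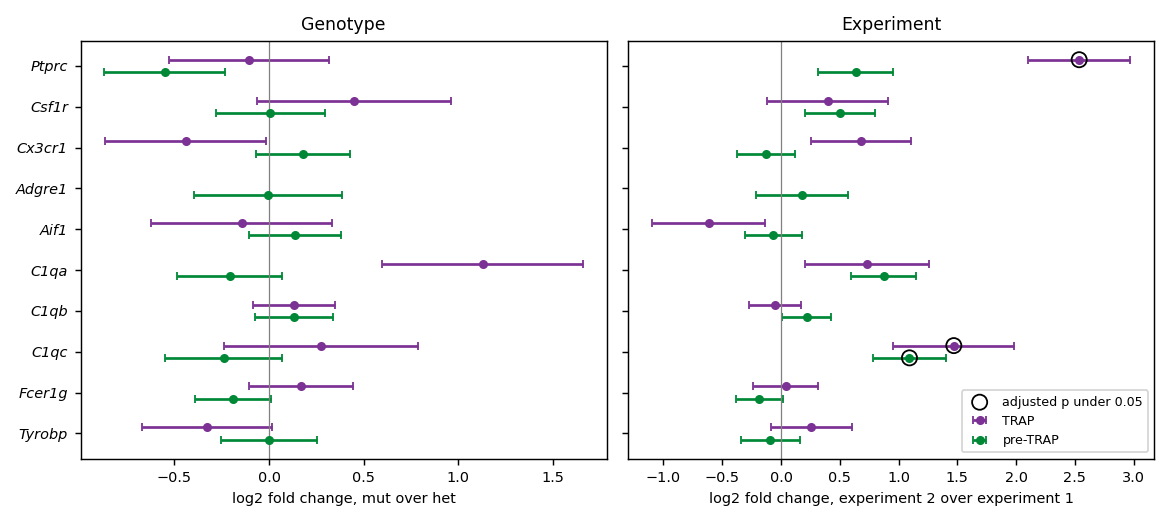
Log2 fold change ± SE of each macrophage gene, mut over het at left and experiment 2 over experiment 1 at right, in purple for TRAP and in green for pre-TRAP; rings mark an edgeR adjusted p under 0.05. No ring appears at left, and at right Ptprc in TRAP (2.54) and C1qc in both (1.47 and 1.09) are ringed.

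A few macrophage genes were called between the experiments in which the pools were collected, where calls were also common over all genes. In TRAP, Ptprc and C1qc were higher in experiment 2 than in experiment 1, 2 of the 9 tested, where 14.1% of all genes tested were called higher. In pre-TRAP, C1qc alone of the 10 was higher, where 9.74% of all genes were. With so few genes, these counts are not read as particular to the macrophage genes. Libraries of both genotypes took part equally in both experiments. What the experiments differed in beyond their number is not given in the labels, and day, reagents and embryos cannot be told apart.

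For Ptprc, the 8 TRAP libraries of experiment 2 ran from 0.475 to 2.09 CPM (median 0.818) and the 8 of experiment 1 from 0.0248 to 0.443 CPM (median 0.152), with no overlap. The log2 fold change was 2.54 ± 0.44 (edgeR adjusted p = 0.000184), and it passed in all 21 alternative fits. In pre-TRAP, Ptprc held 0.477, 0.527, 0.930 and 1.07 CPM in experiment 2 and 0.397, 0.413, 0.504 and 0.549 CPM in experiment 1. Those ranges overlapped, with a log2 fold change of 0.63 ± 0.32 (edgeR adjusted p = 0.211). The difference between TRAP and pre-TRAP in this effect was 1.88 ± 0.64 (unadjusted p = 0.0069), and missed the threshold over all genes (edgeR adjusted p = 0.766); 0.0371% of genes were called for it, and no macrophage gene was.

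Beside Ptprc, the other 9 genes together summed to 3.22 to 6.74 CPM (median 4.78) in TRAP libraries of experiment 2 and to 2.30 to 5.80 CPM (median 4.30) in those of experiment 1, which overlap. A few other leukocyte genes were also called between the experiments in TRAP, where 14.1% of all genes tested were called higher. None of the 3 granulocyte and mast cell genes tested was called. Cybb, the NADPH oxidase subunit of phagocytes, changed by 2.02 ± 0.43 (edgeR adjusted p = 0.0017), the only one of 16 further macrophage genes tested that was called. Of 5 genes of MHC class II and dendritic cells, H2-Ab1 (2.27) and its chaperone Cd74 (1.54) were higher (edgeR adjusted p = 0.00151 each).

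Cd3d, a chain of the T cell receptor complex, ran from 0.281 to 0.917 CPM in the 8 TRAP libraries of experiment 2 and was at 0 in all 8 of experiment 1. In pre-TRAP it ran from 0.169 to 0.508 CPM in experiment 2 and was at 0 in experiment 1. The other lymphoid genes with enough reads for the test were not called: Cd3e in TRAP had a log2 fold change of 0.20 ± 0.56, and in pre-TRAP the B cell receptor chains Cd79a and Cd79b had -0.11 ± 0.44 and -0.53 ± 0.40. The 10 lymphoid genes, of which Ncr1 was at 0 in all 24 libraries, summed to 0.783 to 1.65 CPM in TRAP libraries of experiment 2 and 0.185 to 1.03 CPM in those of experiment 1. In pre-TRAP they summed to 1.55 to 1.64 CPM in experiment 2 and 0.709 to 1.84 CPM in experiment 1. The part of lymphoid cells in the Ptprc values was not tested.

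**Figure D5:**
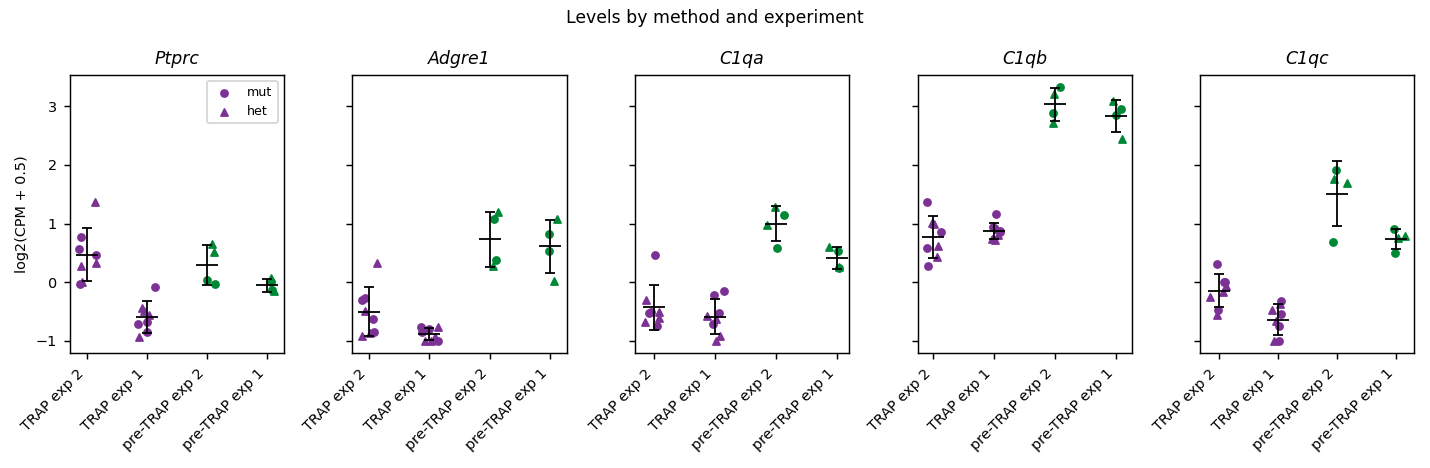
Ptprc, Adgre1 and the C1q genes as log2(CPM + 0.5), by method and experiment, left to right TRAP experiment 2, TRAP experiment 1, pre-TRAP experiment 2 and pre-TRAP experiment 1; circles are mut and triangles het libraries, purple for TRAP and green for pre-TRAP, and black marks are the mean ± SD. Ptprc in TRAP separates by experiment, C1qc is higher in experiment 2 in TRAP and pre-TRAP, and C1qb is level.

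Of the neighbouring C1q genes, C1qc was called and C1qb was not. C1qc ran from 0.178 to 0.742 CPM (median 0.423) in TRAP libraries of experiment 2 and from 0 to 0.299 CPM (median 0.156) in those of experiment 1, and the ranges overlapped. Its log2 fold change was 1.47 ± 0.52 (edgeR adjusted p = 0.0443), which passed in 10 of 21 alternative fits. In pre-TRAP, C1qc held 1.11, 2.74, 2.88 and 3.25 CPM in experiment 2 and 0.909, 1.19, 1.22 and 1.36 CPM in experiment 1, so that only library 18 of experiment 2 lay among those of experiment 1. There the change was 1.09 ± 0.31 (edgeR adjusted p = 0.0314), which passed in 7 of 12 alternative fits. Without library 24, it was 0.76 (edgeR adjusted p = 0.169).

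C1qa held 0.999, 1.47, 1.71 and 1.92 CPM in pre-TRAP libraries of experiment 2 and 0.682, 0.692, 0.949 and 1.02 CPM in those of experiment 1. The log2 fold change was 0.87 ± 0.28 (edgeR adjusted p = 0.0535), which passed in 3 of 12 alternative fits, and in TRAP it was 0.73 ± 0.53 (edgeR adjusted p = 0.349). C1qb had log2 fold changes of -0.05 ± 0.22 in TRAP (edgeR adjusted p = 0.895) and 0.22 ± 0.21 in pre-TRAP (edgeR adjusted p = 0.529). The difference between the chains was not tested. Csf1r, Cx3cr1, Aif1, Fcer1g and Tyrobp were not called in either kind of library: in TRAP they ran from -0.62 ± 0.48 for Aif1 to 0.68 ± 0.42 for Cx3cr1, and in pre-TRAP from -0.18 ± 0.20 for Fcer1g to 0.50 ± 0.29 for Csf1r.

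Adgre1 was not tested within TRAP. It ran from 0.0258 to 0.758 CPM in TRAP libraries of experiment 2 and from 0 to 0.0893 CPM in those of experiment 1, where the 3 libraries without reads all stood. In the fit over all libraries its difference between the experiments was larger in TRAP than in pre-TRAP by 2.26 ± 0.92 on the log2 scale (unadjusted p = 0.0213, edgeR adjusted p = 0.995).

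The genes outside the list whose levels varied most like the macrophage genes were found by Pearson's r between the mean log2(CPM + 0.5) of the 10 and that of each of 12836 named genes with a mean of at least 1 CPM in pre-TRAP libraries, as deviations from the mean of the same method, genotype and experiment over 24 libraries. They were Ccl2 (r = 0.825), Emc7 (0.799), Cd52 (0.750), Neat1 (0.740), Ctss (0.728), Perp (0.726), Serpinf1 (0.718), Rab40b (0.714), Clk1 (0.706) and Ptgis (0.702). Ccl2 encodes a chemokine that draws monocytes, Cd52 a surface glycoprotein of leukocytes and Ctss the lysosomal protease cathepsin S. None of the 10 was among the 10 most alike in the 8 pre-TRAP libraries alone or in the 16 TRAP libraries alone, so this ranking depends on the libraries taken. The macrophage genes themselves did not all vary together. Over the same 24 libraries, r of each with the mean of the other 9 was -0.29 for Ptprc and -0.01 for C1qa. For the rest it ran from 0.38 for C1qb to 0.66 for Aif1. In the 8 pre-TRAP libraries alone, r was 0.75 for C1qa, which had 29 to 68 reads there, and -0.51 for Ptprc. For the rest it ran there from 0.44 for Cx3cr1 to 0.96 for Aif1. In the 16 TRAP libraries alone, r was -0.32 for C1qa, which had 0 to 32 reads there, and -0.32 for Ptprc.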

How the data were processed

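The deposited table holds whole-number counts per Ensembl gene and library, not normalized. The authors' counts came from STAR alignments to GRCm38.p5, with DESeq2 also named, per the submitters' processing notes; for versions, annotation, counting tool and strand setting, the entry is: not given in the sources used here. Symbols were matched by identifier for 53274 of 53946 genes. RefSeq tables (GRCm38.p6) gave promoters and overlapping genes.

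All genes were fitted in edgeR 4.0.16 (R 4.3.3): TMM scaling, filterByExpr with a minimum count of 10 on method-by-genotype-by-experiment cells, quasi-likelihood F tests, experiment as covariate, Benjamini-Hochberg adjustment over all genes tested, and a call at an adjusted p under 0.05. TRAP against pre-TRAP and the interactions used 24 libraries; genotype and experiment were compared within the 16 TRAP or 8 pre-TRAP libraries. CPM are scaled by TMM, so they are relative to all RNA of a library. Errors of log2 fold changes are SE, and 95% intervals are the estimate ± 1.96 SE. The factor 1.96 is that of a normal distribution, so with few libraries these intervals are approximate and somewhat too narrow. For Ptprc between the experiments in pre-TRAP, the interval was 0.01 to 1.26, while edgeR's F test gave an unadjusted p = 0.0682. Counting floors are 3 counts and cover counting error only. The macrophage genes, the 11 other lists (Schwann cells and glia: 2 higher and 4 lower in TRAP) and the tests were chosen with earlier results of these data known. Named genes were Fgf20, the macrophage genes, members of lists beside their counts, and the 10 genes most like the macrophage level. The values of 1 further list gene are not reported here. Alternatives were DESeq2 scaling, no filter, the Wald test of DESeq2 1.42.0, limma 3.58.1 voom, no experiment covariate, a mesenchyme covariate, each experiment or genotype alone, leaving out libraries 3, 4, 5 and 6, and leaving out each library. The fits were tested on simulated data.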

Additional observations from a re-analysis of the deposited data

Results flagged for a closer look

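In 4 of 40 sets of a gene and a group, 1 library lay far from the others by Dixon's test at its 95% critical value. Chance alone gives such a flag for about 1 in 20 groups of normally distributed values. That rate need not hold here, since the values rest on few reads and each group joins 2 experiments. In TRAP het, Ptprc reached 2.09 CPM in library 1, where the next library held 0.755 CPM. Adgre1 reached 0.758 CPM in library 3 of TRAP het, with the next at 0.214 CPM. Aif1 reached 0.714 CPM in library 5 of TRAP het, with the next at 0.336 CPM. In TRAP mut, C1qa reached 0.880 CPM in library 14, with the next at 0.404 CPM. Each was a different gene and library, and libraries 3 and 5 are among the 4 TRAP libraries with the most mesenchymal RNA, a coincidence that was not tested.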

How the results depend on the processing

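The fall of 9 macrophage genes in TRAP and the absence of calls for genotype and for both interactions held in every alternative fit run. The count of genes higher in experiment 2 in TRAP was 2, and 1 without libraries 3, 4, 5 and 6; leaving out each library in turn gave 1 to 2. C1qc was lost there (1.56, adjusted p = 0.0737), and Ptprc passed throughout. The count in pre-TRAP was 1, against 2 by DESeq2's Wald test (C1qa added, adjusted p = 0.0449) and 0 by limma voom (C1qc at 0.0528), and leaving out each library in turn gave 0 to 2. Without pre-TRAP library 24 C1qc missed the threshold, and likewise without library 20, 21 or 23. Csf1r in TRAP changed sign between experiments for genotype (-0.43 in experiment 2 alone, 1.47 in experiment 1 alone), uncalled in each, and Adgre1 moved to 1.18 in the genotype by method interaction without library 3 of TRAP het. Every library has a number of its own, which does not show whether a TRAP and a pre-TRAP library share a pool, so no paired analysis was run. The tests over 24 libraries treated all of them as independent. TRAP values rest on 0 to 88 reads per macrophage gene and library. Exon lengths were not used here, so levels of different genes are not compared.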
